A study of Mus musculus with 17 samples.

Results

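Immune suppressive metabolic enzymes are genes whose products consume or modify small molecules that T cells depend on, and 10 of them were followed here in tumors of the AB12 line. They are Arg1, Arg2 and Nos2, which use arginine, Ido1, Il4i1, Kynu and Kmo, which act on tryptophan and its products, Acod1, which makes itaconate, Cybb, which makes superoxide, and Nt5e, which makes adenosine. They were listed by symbol, with earlier results of these data known, and were 10 of the 55450 genes of the count table. All 10 passed the filter on low counts in every comparison.

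AB12 is a murine mesothelioma cell line. In this study AB12 cells were injected into the peritoneal cavity of BALB/c mice, described in the study as females 8 weeks old, and RNA was sequenced from peritoneal tumors, 1 mouse per library. The untreated groups were 3 tumors taken at d6, 5 taken at d10 and 3 taken at d14. The treated groups came from mice given the anti CTLA-4 antibody 9D9 into the peritoneum, 200 µg per injection, with 3 tumors taken at d10 and 3 at d14. Mice of the treated d14 tumors were injected at d6 and again at d10. The labels describe a general course of 4 injections at 2 per week. How many the mice of the treated d10 tumors had received is not given in the sources used here. The comparisons ask how these genes change as the untreated tumor grows and whether they differ after treatment. No isotype control antibody is named for the untreated mice, and all tumors come from 1 cell line in 1 mouse strain.

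Activated T cells need arginine and tryptophan, and myeloid cells in tumors are known to deplete both. Arginase and inducible nitric oxide synthase compete for arginine, while the kynurenine pathway turns tryptophan into metabolites that can act through the aryl hydrocarbon receptor. Superoxide, itaconate and extracellular adenosine are further myeloid or stromal products with known effects on lymphocytes. Tumor cells can share some of these genes with the cells that infiltrate the tumor. The measurements below come from whole tumors, in which fewer cells of a type and less RNA per cell cannot be told apart.

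The libraries held 46371577 to 96759833 counts each, with a median of 72413343. Mesothelial and keratin genes were present in every tumor (summed normalized CPM of 7 markers between 1877 and 4036), as were 8 macrophage and monocyte markers (between 1001 and 3651), whereas 5 liver markers, Alb among them, summed to at most 0.142 normalized CPM outside the treated d14 group. Some libraries stood apart. Genes of pancreas acinar cells summed to 946 and 311 normalized CPM in treated d14 replicates 1 and 3, against 2.88 in replicate 2 and at most 2.45 in every other tumor, and the liver markers reached 4.71 and 1.25 in the same replicates 1 and 3. B cell markers summed to 132 normalized CPM in untreated d10 replicate 4 and to between 28.5 and 80.0 in the other 16 tumors. When libraries were clustered on 529 pseudogenes and small RNA genes, they fell into 3 sets (a number chosen after the data were seen). Set A held the d6 tumors and untreated d10 replicates 1 to 3, set B held untreated d10 replicates 4 and 5 and the treated d10 tumors, and set C held all d14 tumors. With these 3 sets, comparisons of d14 with earlier untreated tumors always cross sets, and time and library set cannot be told apart in them. When the same clustering was cut into 2 sets, set A was unchanged and all other tumors formed the second set. On that division untreated d14 tumors and untreated d10 replicates 4 and 5 lie in the same set.

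Levels of different genes were compared per kb of exon. Arg1 led by far, at a mean of 574 normalized CPM per kb over the 17 tumors, above 99.7% of the 18843 genes that passed the filter over the 5 groups. Nos2 followed at 156, Cybb at 93.0, Acod1 at 50.8 and Ido1 at 49.0 normalized CPM per kb, and Arg2 stood at 16.6. The remaining 4 were low, with Nt5e at 1.12, Kmo at 0.83, Il4i1 at 0.64 and Kynu at 0.51 normalized CPM per kb. Il4i1 shares 3602 of its 4080 exon bases with other genes and Arg2 401 of 1428, so the levels per kb and ranks of these 2 are uncertain. Even these low genes had at least 55 counts in every library. Between the lowest and the highest tumor, levels differed least for Acod1 (2.17-fold) and most for Nt5e (7.99-fold).

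**Figure D1:**
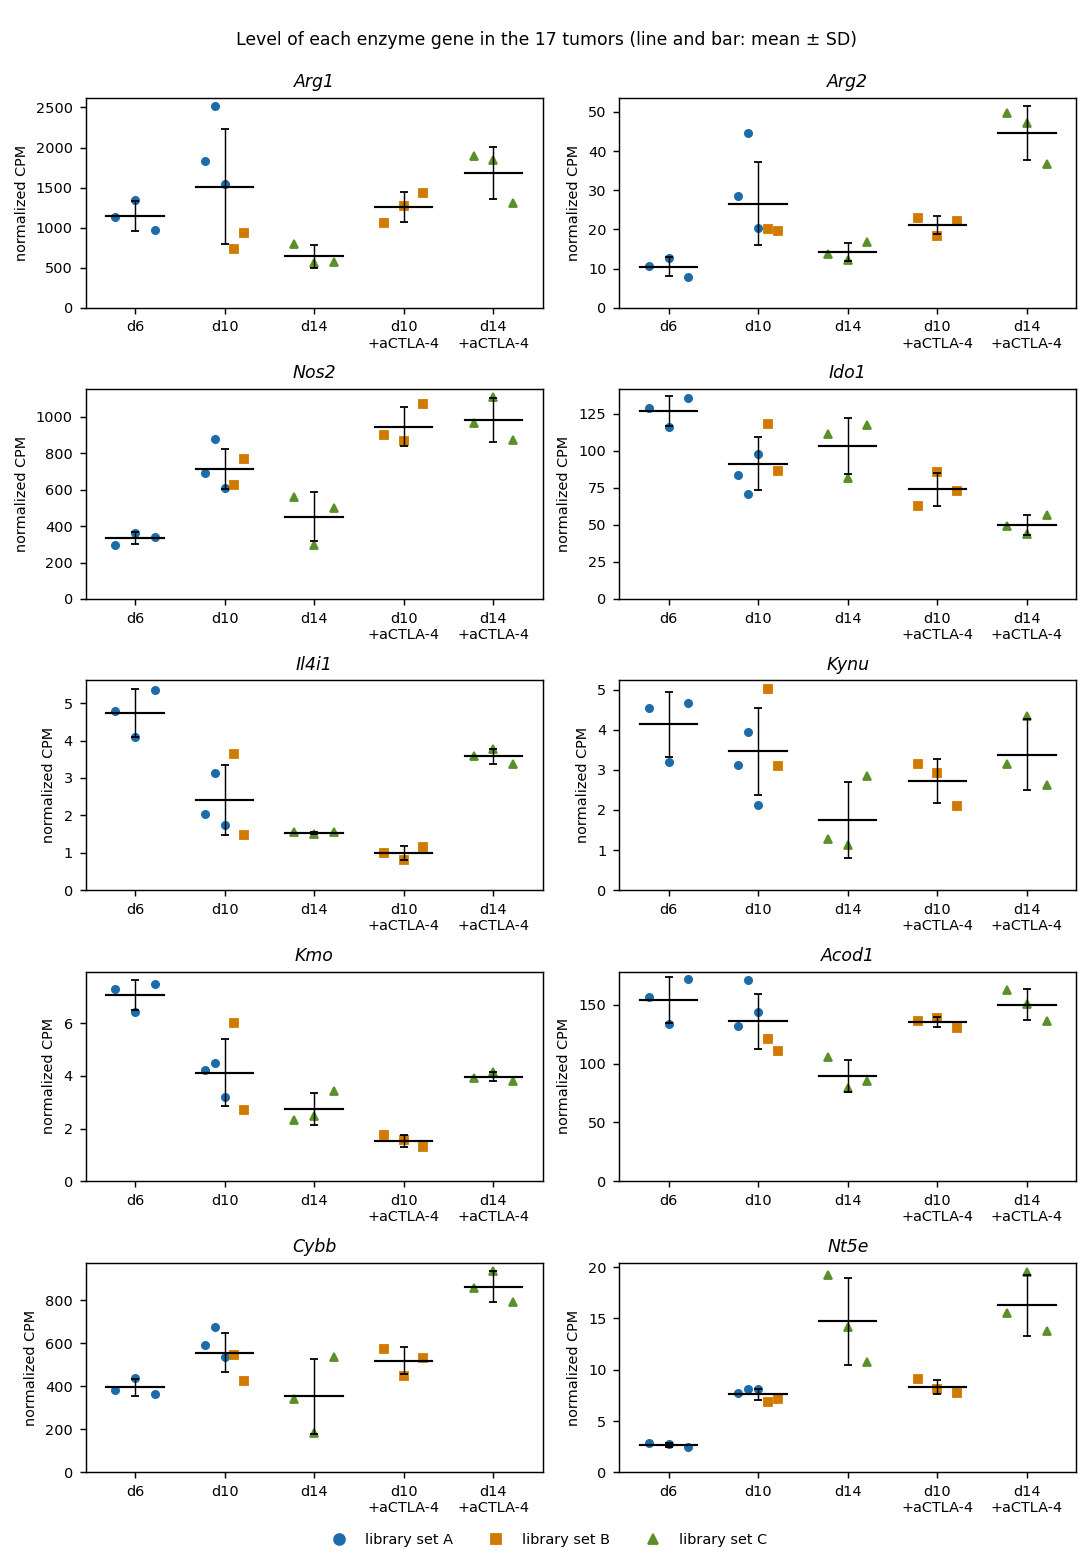
Each panel shows 1 gene, with its level in normalized CPM on a linear axis that starts at 0 and the 5 groups along the other axis. Points are tumors, marked by library set, and lines and bars are the group mean and SD. Nt5e climbs from about 2.69 at d6 to 14.7 at d14 in untreated tumors, and 6 of the 10 genes are past both thresholds between the treated and the untreated d14 tumors.

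A gene was called when its fold change exceeded 2 and its p-value from edgeR's quasi-likelihood test, adjusted over all tested genes by Benjamini-Hochberg, was under 0.05. From d6 to d10 in untreated tumors, 3 of the 10 genes were called, all higher, where 7.45% of the 16866 tested genes were called. From d10 to d14, 1 of 10 was called, lower, close to the 7.23% of all tested genes that were called. Between d6 and d14, 4 of 10 were called, 1 higher and 3 lower, with a background of 19.0%. In treated against untreated d14 tumors 6 of 10 were called, 5 higher and 1 lower, where the share over all genes was 11.5%. Of all tested genes 1638 were called higher and 434 lower there. The median log2 fold change of the 10 genes in these comparisons was 0.13, -0.66, -0.52 and 1.07, and that of all tested genes was 0.03, -0.04, 0.01 and -0.00. In treated against untreated d10 tumors edgeR called 0 of 10 (3 at an unadjusted p below 0.05) and 0.0174% of all tested genes. DESeq2 called 2 of 10 there, and 223 of 17258 genes.

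**Figure D2:**
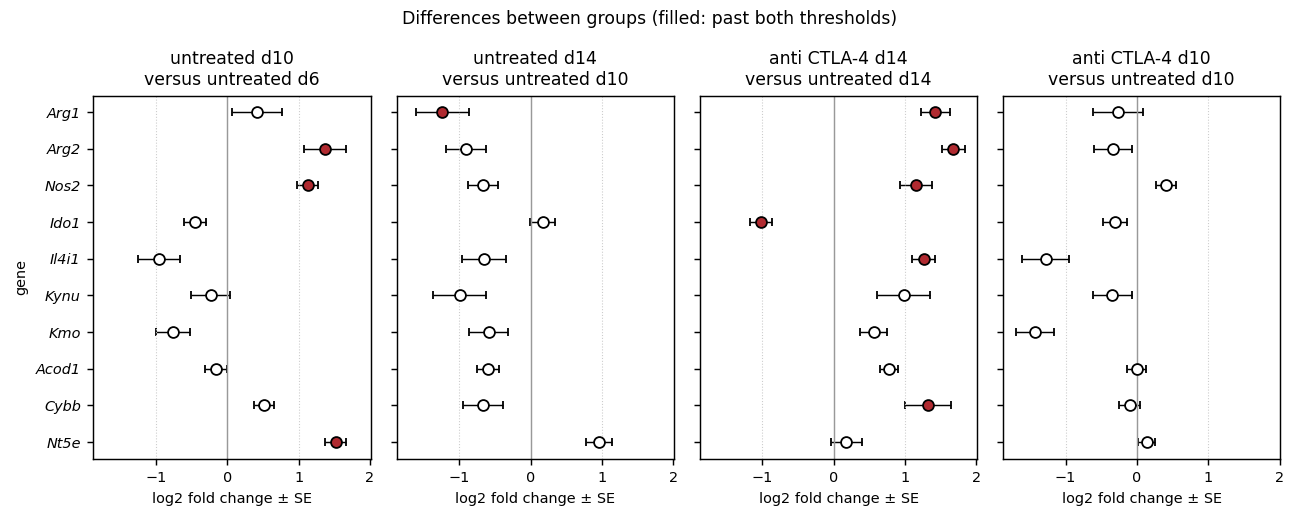
Log2 fold changes of the 10 genes with their standard errors in 4 comparisons of tumor groups. Filled points passed both thresholds and dotted lines mark a fold change of 2. In the d14 treated panel 9 of the 10 points lie to the right of 0 and Ido1 lies at -1.02, while no point of the d10 treated panel is filled.

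Arg1 (ENSMUSG00000019987.9, chr10:24915221-24927484, minus strand of GRCm38) encodes arginase 1, which splits arginine into ornithine and urea. In untreated tumors it stood at 1133, 1344 and 972 normalized CPM at d6, at 1832, 2518, 1541, 732 and 926 at d10 and at 799, 552 and 567 at d14. In treated tumors it stood at 1062, 1273 and 1434 normalized CPM at d10 and at 1899, 1838 and 1302 at d14. The d14 untreated tumors were the lowest group, all 3 below every d6 tumor and every treated tumor, and the untreated d10 tumors were split, with replicates 1 to 3 above the whole d6 range and replicates 4 and 5 below it.

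Arg1 fell from d10 to d14 (log2 fold change -1.24 ± 0.37 SE, adjusted p = 0.0436). This call depended on the d10 tumors used. The log2 fold change was -1.61 (adjusted p = 0.00146) against d10 replicates 1 to 3 and -0.39 (adjusted p = 0.162) against replicates 4 and 5. Leaving out any 1 of untreated d10 replicates 1 to 3 or of the d14 replicates also ended the call, with log2 fold changes between -1.44 and -0.98. From d6 to d10 the log2 fold change was 0.42 ± 0.35 (adjusted p = 0.442), and it took opposite signs with each part of the d10 tumors, 0.80 (adjusted p = 0.00905) with replicates 1 to 3, which share library set A with d6, and -0.46 (adjusted p = 0.0462) with replicates 4 and 5. In treated against untreated d14 tumors, all of set C, Arg1 rose 2.69-fold (log2 fold change 1.43 ± 0.20, adjusted p = 0.00508). Macrophage and monocyte markers were higher in the same tumors (summed normalized CPM 3067 to 3651 against 1001 to 2042), and as a percentage of their summed counts Arg1 lay at 42.5 to 52.0% in treated and 27.8 to 55.1% in untreated d14 tumors, which overlap.

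Arg2 (ENSMUSG00000021125.6, chr12:79130777-79156301, plus strand) encodes the mitochondrial arginase. It shares 401 of its 1428 exon bases with genes on the opposite strand, Vti1b and Gm48780, and since no strand setting of the counting is given in the sources used here, its counts are uncertain. It stood at 10.7, 12.7 and 7.96 normalized CPM at d6, at 28.6, 44.5, 20.4, 19.97 and 19.6 at d10 and at 13.8, 12.2 and 16.8 at d14 in untreated tumors, and at 22.8, 18.4 and 22.02 at d10 and 49.7, 47.2 and 36.8 at d14 in treated tumors. Every d10 tumor lay above every d6 tumor, and every treated d14 tumor lay above every untreated d14 tumor. Arg2 rose 2.59-fold from d6 to d10 (log2 fold change 1.37 ± 0.30, adjusted p = 0.0126), a call lost without d6 replicate 1 (adjusted p = 0.0570) or d6 replicate 3 (adjusted p = 0.0678) and with d10 replicates 4 and 5 alone, where the log2 fold change was 0.93. Arg2 rose 3.20-fold in treated against untreated d14 tumors (log2 fold change 1.68 ± 0.16, adjusted p = 0.00347), the largest log2 fold change of the 10 genes in that comparison. As a percentage of the macrophage and monocyte marker counts the ranges overlapped, 1.199 to 1.36% in treated and 0.82 to 1.22% in untreated d14 tumors.

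Nos2 (ENSMUSG00000020826.8, chr11:78920787-78960254, plus strand) encodes inducible nitric oxide synthase, which converts arginine into nitric oxide and citrulline. It stood at 296, 364 and 340 normalized CPM at d6, at 689, 881, 608, 625 and 768 at d10 and at 558, 298 and 502 at d14 in untreated tumors. Treated tumors held 903, 866 and 1069 normalized CPM at d10 and at 969, 1112 and 872 at d14. Each d10 tumor exceeded each d6 tumor, and the d14 untreated tumors fell back into a range that overlaps d6. Nos2 rose 2.18-fold from d6 to d10 (log2 fold change 1.12 ± 0.15, adjusted p = 0.00112), with nearly the same value for d10 replicates 1 to 3 (1.15) and 4 and 5 (1.08). From d10 to d14 its log2 fold change was -0.66 ± 0.21 (adjusted p = 0.0503). It rose 2.22-fold in treated d14 tumors over untreated ones (log2 fold change 1.15 ± 0.22, adjusted p = 0.0104), and without untreated d14 replicate 2, the lowest of its group, the log2 fold change was 0.91 (adjusted p = 0.00766), within 2-fold. Against the macrophage and monocyte marker counts Nos2 lay at 26.5 to 30.8% in treated and 24.6 to 37.7% in untreated d14 tumors, again overlapping.

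Arg1 and Nos2 draw on the same substrate, and their ratio within a library needs no scaling between libraries. Per kb of exon, Arg1 exceeded Nos2 in every tumor. The ratio was between 5.66 and 7.58 at d6 and between 2.24 and 3.67 in untreated d14 tumors, without overlap. At d10 the untreated tumors again fell into parts, since the ratio was between 5.02 and 5.66 in replicates 1 to 3 and at 2.32 and 2.39 in replicates 4 and 5. Over library sets the ratio was between 5.02 and 7.58 in set A, between 2.32 and 2.91 in set B and between 2.24 and 3.88 in set C, and the part of the library set in the ratio was not tested.

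**Figure D3:**
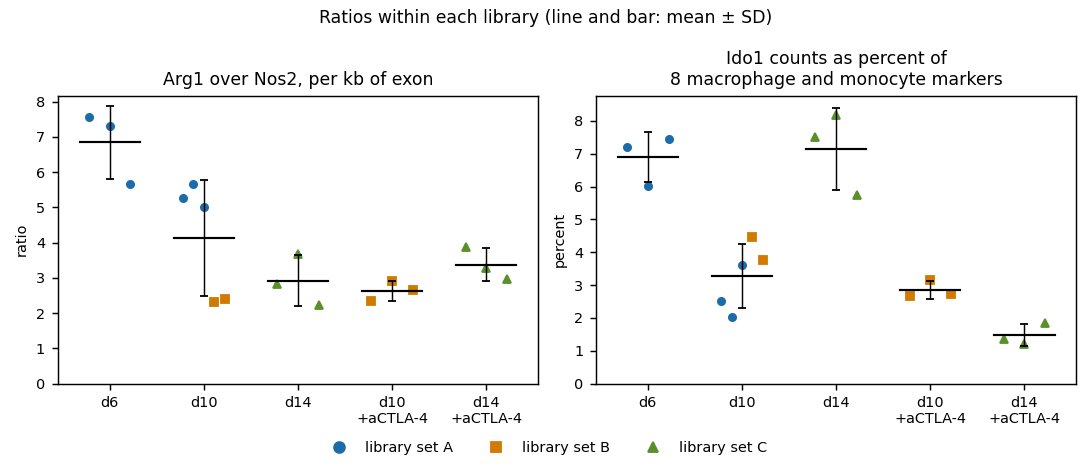
Ratios within each library, by group, with tumors marked by library set and group means and SDs as lines and bars. The left panel gives the ratio of Arg1 to Nos2 per kb of exon, which lies above 5 in all 6 set A tumors and below 4 in the other 11. The right panel gives Ido1 counts as a percentage of the summed counts of 8 macrophage and monocyte markers, which lies between 1.21 and 1.85% in treated d14 tumors and between 5.74 and 8.18% in untreated d14 tumors.

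Other genes around arginine were read from a list. Of 14 tested genes of arginine uptake, arginine resynthesis and polyamine synthesis, edgeR called 0 from d6 to d10 and 0 from d10 to d14 (5 and 5 at an unadjusted p below 0.05), and DESeq2 called 0 in both. In treated against untreated d14 tumors the call was Slc7a2, a cationic amino acid transporter that carries arginine into cells, with a log2 fold change of 1.49 ± 0.25 (adjusted p = 0.00681) and between 290 and 433 normalized CPM in treated against 107 to 185 in untreated tumors. It was 1 call of 14, with 10 of the 14 at an unadjusted p below 0.05, a median log2 fold change of 0.20 and 11.5% of all genes called. In a test of the treatment effect at d14 against that at d10, edgeR called Slc7a2 (1.30 ± 0.40, adjusted p = 0.0385) and Ddah2, which breaks down an inhibitor of nitric oxide synthases (1.02 ± 0.22, adjusted p = 0.00935). These were 2 of 14 tested genes, close to the 11.8% of all tested genes called, and DESeq2 called 1 of the 14. Of 6 genes that make or recycle tetrahydrobiopterin, the cofactor of Nos2, edgeR and DESeq2 called 0 in treated d14 tumors (2 at an unadjusted p below 0.05), and Gch1, the first enzyme of that synthesis, had a log2 fold change of -0.16 ± 0.07.

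Ido1 (ENSMUSG00000031551.12, chr8:24584136-24597009, minus strand) encodes indoleamine 2,3-dioxygenase, which opens the ring of tryptophan in the first step of the kynurenine pathway and is a classical target of interferon gamma. It stood at 129, 116 and 136 normalized CPM at d6, at 83.8, 70.7, 97.9, 118 and 86.6 at d10 and at 111, 82.0 and 117 at d14 in untreated tumors. Treated tumors held 63.1, 85.7 and 73.1 normalized CPM at d10 and at 49.6, 43.7 and 56.7 at d14. The treated d14 tumors were the lowest group, all 3 below the other 14 tumors.

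Ido1 was the 1 gene of the 10 that was called lower in treated d14 tumors, 2.03-fold (log2 fold change -1.02 ± 0.15, adjusted p = 0.00593). Its fold change lay at the threshold, so leaving out untreated d14 replicates 1 or 3 or treated d14 replicates 1 or 2 ended the call, with log2 fold changes between -0.99 and -0.89 and adjusted p-values between 0.00491 and 0.0281. In untreated tumors Ido1 had log2 fold changes of -0.45 ± 0.15 from d6 to d10 (adjusted p = 0.0717) and 0.17 ± 0.17 from d10 to d14 (adjusted p = 0.503). Macrophage and monocyte markers went the other way in the treated d14 tumors, where their sum lay between 3067 and 3651 normalized CPM against 1001 to 2042 in untreated d14 tumors, whereas the 7 mesothelial and keratin markers summed to 1877 to 2093 against 2764 to 2832. Members of the latter list went both ways, since Lrrn4 and Wt1 were called higher (log2 fold changes 2.19 and 1.54) and Krt19 had a log2 fold change of -0.77, within 2-fold. The part of either cell type in the lower Ido1 level was not tested. Interferon gamma itself (Ifng) was higher in treated d14 tumors, at 10.5 to 14.2 against 4.38 to 8.37 normalized CPM (log2 fold change 1.06 ± 0.25, adjusted p = 0.0167). It was the single call among 10 tested genes of the interferon list, close to the 11.5% of all tested genes that were called.

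Il4i1 (ENSMUSG00000074141.13, chr7:44816387-44840809, plus strand) encodes a secreted amino acid oxidase, induced by IL-4, that acts on phenylalanine and tryptophan. Its counts are uncertain, since 3602 of its 4080 exon bases are shared with other genes, Nup62 on the same strand and Atf5 and Tbc1d17 on the opposite one. It stood at 4.78, 4.09 and 5.37 normalized CPM at d6, at 2.03, 3.13, 1.73, 3.65 and 1.48 at d10 and at 1.55, 1.496 and 1.55 at d14 in untreated tumors, and at 1.003, 0.80 and 1.16 at d10 and 3.58, 3.78 and 3.38 at d14 in treated tumors. Within the treated tumors, d14 lay above d10 with no overlap, whereas within the untreated tumors d6 lay above both later groups with no overlap. Il4i1 fell 3.06-fold between d6 and d14 (log2 fold change -1.61 ± 0.19, adjusted p = 0.000223) and rose 2.39-fold in treated against untreated d14 tumors (log2 fold change 1.26 ± 0.16, adjusted p = 0.00485). Its percentage of the macrophage and monocyte marker counts overlapped between these groups, at 0.098 to 0.110% in treated and 0.076 to 0.149% in untreated tumors. From d6 to d10 its log2 fold change was -0.96 ± 0.29, and with d10 replicates 1 to 3 alone it was called lower (-1.02, adjusted p = 0.0124).

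Kmo (ENSMUSG00000039783.15, chr1:175620381-175662116, plus strand) encodes kynurenine 3-monooxygenase, which hydroxylates kynurenine. In untreated tumors it stood at 7.29, 6.43 and 7.49 normalized CPM at d6, at 4.21, 4.49, 3.20, 6.02 and 2.71 at d10 and at 2.33, 2.49 and 3.43 at d14. In treated tumors it stood at 1.74, 1.55 and 1.29 normalized CPM at d10 and at 3.93, 4.16 and 3.81 at d14. The order of the untreated groups was d6, d10, d14, with d6 clear of both others, and the treated d10 tumors lay below all 14 other tumors. Kmo fell 2.54-fold between d6 and d14 (log2 fold change -1.34 ± 0.19, adjusted p = 0.000616), and in treated against untreated d14 tumors its log2 fold change was 0.56 ± 0.19 (adjusted p = 0.0539).

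Kynu (ENSMUSG00000026866.16, chr2:43555329-43682715, plus strand) encodes kynureninase, which cleaves kynurenine and its hydroxylated form. It stood at 4.54, 3.20 and 4.68 normalized CPM at d6, at 3.13, 3.95, 2.11, 5.02 and 3.10 at d10, at 1.28, 1.12 and 2.84 at d14, and at 3.15, 2.92 and 2.10 in treated d10 and 3.15, 4.35 and 2.62 in treated d14 tumors. Neighbouring groups in the order of means overlapped throughout. Kynu was called lower between d6 and d14 (log2 fold change -1.22 ± 0.35, adjusted p = 0.0177), but the call was lost without d6 replicates 1 or 3 or d14 replicates 1 or 2. Its log2 fold change in treated against untreated d14 tumors was 0.98 ± 0.38 (adjusted p = 0.0800). Without untreated d14 replicate 3, the highest of its group, it was called higher (1.55, adjusted p = 0.00595). Kmo, Kynu and Il4i1 were each highest among the untreated d10 tumors in replicate 4, the library with 132 normalized CPM of B cell markers against 40.5 to 44.4 in the other 4, and the part of B cells in these values was not tested.

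In treated against untreated d14 tumors 11.5% of all tested genes were called. Of 11 tested other genes of tryptophan uptake and breakdown, 3 were called higher there and 0 lower. They were Tdo2, which opens tryptophan as Ido1 does (log2 fold change 4.51 ± 0.94, adjusted p = 0.0126), Slc7a8, an amino acid transporter (1.28 ± 0.18, adjusted p = 0.00508), and Qprt, which uses quinolinate for NAD synthesis (1.25 ± 0.29, adjusted p = 0.0163). Tdo2 stood at only 1.66 to 4.95 normalized CPM in treated d14 tumors and at most 0.34 in untreated d14 tumors. It is strongly expressed in liver, and 5 liver markers summed to 4.71, 0.065 and 1.25 normalized CPM in treated d14 replicates 1 to 3 against at most 0.142 in every other tumor. The part of liver RNA in the Tdo2 level was not tested. Ido2, the paralog of Ido1, lay between 7.94 and 10.4 normalized CPM in treated d14 and between 13.3 and 17.96 in untreated d14 tumors, and its change did not pass both thresholds. The list's median log2 fold change was 0.09. Among 6 genes of the aryl hydrocarbon receptor pathway, Ahrr, the receptor's repressor, and Nqo1, a target enzyme, rose from d6 to d10 (log2 fold changes 1.37 ± 0.36 and 1.89 ± 0.34, adjusted p = 0.0282 and 0.00555). Over that interval 7.45% of all tested genes were called. In treated d14 tumors edgeR and DESeq2 called 0 of these 6 (3 at an unadjusted p below 0.05).

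Acod1 (ENSMUSG00000022126.6, chr14:103046977-103056573, plus strand) encodes the enzyme that diverts the citric acid cycle intermediate cis-aconitate to itaconate in activated macrophages. It stood at 157, 134 and 172 normalized CPM at d6, at 132, 171, 144, 121 and 111 at d10 and at 105, 79.1 and 84.9 at d14 in untreated tumors. In treated tumors it stood at 136, 139 and 131 normalized CPM at d10 and at 163, 151 and 137 at d14. The untreated d14 tumors lay below every other tumor, and the other 4 groups overlapped one another. Its differences stayed within 2-fold. The log2 fold change was -0.60 ± 0.15 from d10 to d14 (adjusted p = 0.0263), -0.76 ± 0.13 between d6 and d14 (adjusted p = 0.00148) and 0.77 ± 0.13 in treated against untreated d14 tumors (adjusted p = 0.00681). Of the macrophage and monocyte marker counts, Acod1 amounted to 4.18 to 4.45% in treated and 4.16 to 7.90% in untreated d14 tumors. These ranges overlap. Of 12 citric acid cycle genes edgeR and DESeq2 called 0 in treated d14 tumors (6 at an unadjusted p below 0.05), with a median log2 fold change of -0.16.

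Cybb (ENSMUSG00000015340.10, chrX:9435252-9487771, minus strand) encodes gp91phox, the catalytic subunit of the phagocyte NADPH oxidase. RefSeq promoter windows were at hand for Il4i1, Kmo, Acod1, Cybb and Nt5e of the 10 genes, and only that of Cybb held the core of the interferon-stimulated response element, which is GAAA, any 2 bases and GAAA again and was searched on both strands, and which occurs in 3.44% of 32851 windows of the same length. Its last 200 bases before the RefSeq start site (GRCm38.p6, chrX:9469325-9469524, minus strand) are shown because all 3 matches lie in them, with the matches in capitals.
Cybb: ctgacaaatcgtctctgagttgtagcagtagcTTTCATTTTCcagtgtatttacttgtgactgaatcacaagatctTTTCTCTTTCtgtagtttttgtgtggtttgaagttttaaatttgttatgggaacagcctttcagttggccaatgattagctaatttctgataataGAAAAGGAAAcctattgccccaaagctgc
The matches begin at 168, 124 and 29 bases before the start site. They are letters in a window and say nothing about a factor bound there.

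Cybb stood at 383, 438 and 365 normalized CPM at d6, at 595, 677, 538, 548 and 427 at d10 and at 340, 185 and 535 at d14 in untreated tumors. Treated tumors held 576, 451 and 530 normalized CPM at d10 and at 860, 937 and 795 at d14. The treated d14 tumors lay above all 14 others, and the untreated d14 tumors spread over nearly a 3-fold range that overlapped every earlier untreated group. Cybb rose 2.50-fold in treated against untreated d14 tumors (log2 fold change 1.32 ± 0.33, adjusted p = 0.0202). Without untreated d14 replicate 1 or treated d14 replicates 1 or 2 the log2 fold change stayed between 1.29 and 1.35, with adjusted p-values between 0.0591 and 0.0721. From d6 to d10 its log2 fold change was 0.52 ± 0.14 (adjusted p = 0.0335), within 2-fold.

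The partners of Cybb were read from a list of 10 genes of NADPH oxidases. Of these, 6 were called higher in treated against untreated d14 tumors and 1 was called lower, where the share over all genes was 11.5%. The list's median log2 fold change was 1.10. The largest were Hvcn1, the proton channel that balances the charge moved by the oxidase (1.69 ± 0.41, adjusted p = 0.0189), Nox1, the catalytic subunit of an epithelial oxidase, which fell (-1.33 ± 0.26, adjusted p = 0.00991), and Cyba, the p22phox partner of Cybb in the membrane (1.19 ± 0.25, adjusted p = 0.0120). Among the others called higher were the cytosolic subunit genes Ncf1 and Ncf4 and the GTPase gene Rac2, with log2 fold changes between 1.11 and 1.17. From d10 to d14 in untreated tumors 7.23% of all tested genes were called. Of the 10 listed genes 3 were called lower there, Rac2 (-1.25 ± 0.26, adjusted p = 0.0124), Cyba (-1.21 ± 0.26, adjusted p = 0.0140) and Hvcn1 (-1.42 ± 0.44, adjusted p = 0.0492). From d6 to d10, with 7.45% of all tested genes called, Hvcn1 had been the single call and rose (1.98 ± 0.32, adjusted p = 0.00347). Macrophage and monocyte markers moved with these genes, since 5 of 8 were called higher in treated d14 tumors, with a median log2 fold change of 1.12. Per unit of that marker sum Cybb differed little, at 23.6 to 26.0% in treated and 18.5 to 26.2% in untreated d14 tumors.

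Nt5e (ENSMUSG00000032420.8, chr9:88327197-88372092, plus strand) encodes CD73, the surface enzyme that turns AMP into adenosine. In untreated tumors it stood at 2.87, 2.76 and 2.45 normalized CPM at d6, at 7.74, 8.14, 8.11, 6.87 and 7.14 at d10 and at 19.2, 14.2 and 10.8 at d14. In treated tumors it stood at 9.12, 8.14 and 7.78 normalized CPM at d10 and at 15.5, 19.6 and 13.8 at d14. The 3 times did not overlap in untreated tumors, d6 lowest and d14 highest, and at each time the treated tumors overlapped the untreated ones.

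Nt5e rose 2.87-fold from d6 to d10 (log2 fold change 1.52 ± 0.15, adjusted p = 0.000337) and 5.54-fold from d6 to d14 (2.47 ± 0.23, adjusted p = 7.88e-05). The first of these held within library set A (1.60 with d10 replicates 1 to 3, adjusted p = 0.000123) and in all 8 fits that left out 1 tumor (log2 fold changes between 1.46 and 1.57). From d10 to d14 the log2 fold change was 0.95 ± 0.18 (adjusted p = 0.0104), just within 2-fold. It was called higher without untreated d14 replicate 3 (1.14, adjusted p = 0.0178), with d10 replicates 4 and 5 alone (1.06, adjusted p = 0.0240) and without TMM (1.02, adjusted p = 0.00814). It did not differ detectably between treated and untreated tumors, with log2 fold changes of 0.18 ± 0.22 at d14 (adjusted p = 0.564) and 0.13 ± 0.12 at d10 (adjusted p = 0.643). Treated d14 tumors were set against untreated d10 tumors as well, a comparison in which Nt5e was the 1 call among the 10 genes (log2 fold change 1.06 ± 0.13, adjusted p = 0.00203, with 7.83% of all tested genes called). This call was lost with d10 replicates 1 to 3 alone (0.997, adjusted p = 0.000558), without treated d14 replicate 2 (0.91, adjusted p = 0.0141) and with that replicate alone (1.31, adjusted p = 0.109).

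Of 18 genes of extracellular ATP and adenosine, 6 were called higher and 0 lower in treated against untreated d14 tumors. The share over all tested genes was 11.5%, and the list's median log2 fold change was 0.75. The largest were Adora1 (2.50 ± 0.59, adjusted p = 0.0178) and Adora2a (1.33 ± 0.22, adjusted p = 0.00683), both adenosine receptors, and Alpl, a phosphatase (1.56 ± 0.26, adjusted p = 0.00715). The filter on low counts kept 18 of these genes in each comparison that held treated d14 tumors but 17 in every other comparison. At least 1 gene was therefore tested only where treated d14 tumors entered. Adora1 was called only in comparisons that held treated d14 tumors, and given this filter its call is not read as particular to them. Entpd1, which encodes CD39 and makes the AMP that CD73 uses, was called as well (1.05 ± 0.21, adjusted p = 0.0111), at 136 to 176 normalized CPM in treated and 53.7 to 98.9 in untreated d14 tumors. In the untreated course Entpd3, another ATP-splitting enzyme, rose from d6 to d10 (2.06 ± 0.31, adjusted p = 0.00228), the single call among 17 tested genes of the list. Over that interval 7.45% of all tested genes were called.

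**Figure D4:**
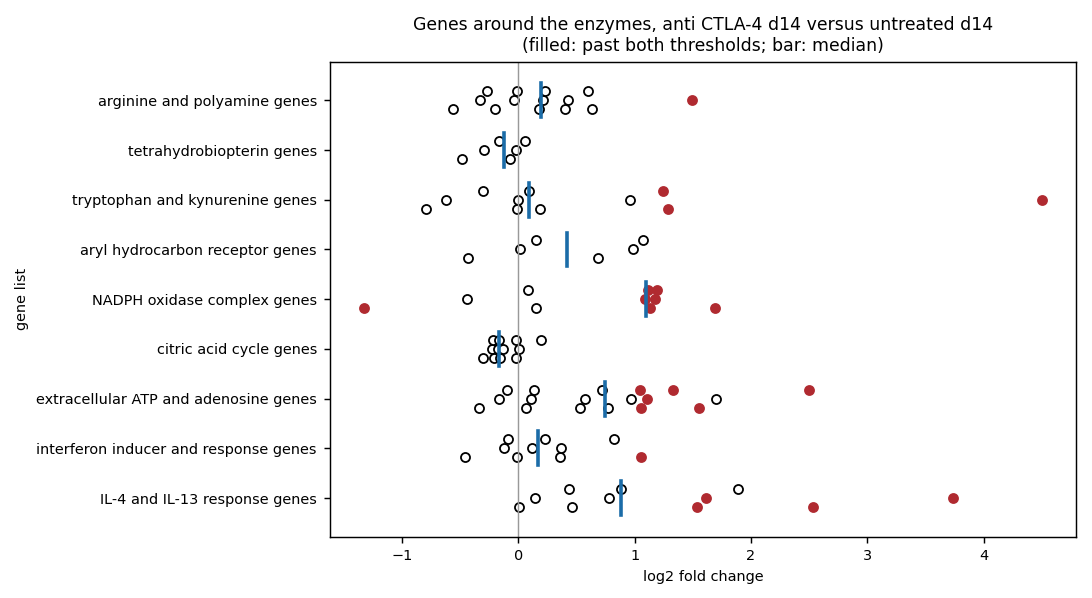
Log2 fold changes of single genes in treated against untreated d14 tumors, in 9 lists around the enzymes, with filled points past both thresholds and a bar at each list's median. Points of the NADPH oxidase and adenosine lists lie mostly right of 0 (medians 1.10 and 0.75), while the citric acid cycle list is centred at -0.16.

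The inducers of these enzymes were read from lists of interferon and of IL-4 and IL-13 genes. From d6 to d10 7.45% of all tested genes were called. Among the 12 genes of the IL-4 and IL-13 list, 6 were called lower from d6 to d10 and 0 higher, led by Ccl17 (-2.89 ± 0.42, adjusted p = 0.00187), Retnla (-2.74 ± 0.72, adjusted p = 0.0276) and Il13 (-1.94 ± 0.44, adjusted p = 0.0152). Over the same interval Cxcl10, an interferon-induced chemokine, and Ifnb1, interferon beta, were the calls of the interferon list and fell (-2.04 ± 0.25 and -4.42 ± 0.60, adjusted p = 0.000940 and 0.00143). In treated against untreated d14 tumors 11.5% of all tested genes were called. At d14, 4 of 11 tested IL-4 and IL-13 genes were called higher in treated tumors, Retnla (3.74 ± 1.18), Il13 (2.53 ± 0.59), Pdcd1lg2, which encodes PD-L2 (1.62 ± 0.29), and Ccl22 (1.54 ± 0.25), with adjusted p-values between 0.00673 and 0.0446. Retnla was low in both groups, at 0.22 to 5.12 normalized CPM in treated and 0.04 to 0.36 in untreated d14 tumors. Over the d6 to d10 interval, 6 resident peritoneal macrophage markers summed to 410 to 573 normalized CPM at d6 and 69.4 to 163 at d10, and 5 T cell markers to 34.9 to 37.6 and 175 to 240, and the part of these cells in the enzyme levels was not tested.

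The treated d14 tumors contained the libraries with pancreas RNA. With treated d14 replicate 2 alone, which lacked it, log2 fold changes against untreated d14 tumors were as large as with all 3 tumors, at 1.56 for Arg1, 1.76 for Arg2, 1.33 for Nos2, -1.21 for Ido1, 1.34 for Il4i1 and 1.44 for Cybb. With 1 treated tumor, assumed to vary like the untreated ones, the adjusted p-values of these 6 lay between 0.0879 and 0.162, and 2 of all tested genes were called. Other markers also differed between all 3 treated d14 tumors and the untreated ones, a comparison with 11.5% of all tested genes called. There 4 of 5 fibroblast markers and 3 of 7 neutrophil markers were called higher. These lists summed to 2204 to 3378 against 880 to 1693 and to 157 to 208 against 65.4 to 119 normalized CPM. Their part in the enzyme levels was not tested.

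The effect of treatment at d14 was compared with that at d10 by a test of the difference, in which 5 of the 10 genes were called, all with a more positive effect at d14, where 11.8% of all tested genes were called. The difference in log2 fold change was 1.68 ± 0.48 for Arg1 (adjusted p = 0.0273), 2.0 ± 0.36 for Arg2 (adjusted p = 0.00432), 2.53 ± 0.40 for Il4i1 (adjusted p = 0.00328), 1.98 ± 0.35 for Kmo (adjusted p = 0.00415) and 1.41 ± 0.36 for Cybb (adjusted p = 0.0179). For Nos2 it was 0.74 ± 0.27 (adjusted p = 0.0745), for Ido1 -0.72 ± 0.25 (adjusted p = 0.0562) and for Nt5e 0.03 ± 0.25 (adjusted p = 0.952). The call of Arg1 was lost when any 1 of 6 tumors was left out, namely untreated d14 replicates 2 or 3, treated d10 replicates 1 or 2 and treated d14 replicates 1 or 2 (adjusted p between 0.0584 and 0.0786), and with untreated d10 replicates 4 and 5 alone (0.83, adjusted p = 0.0557). That of Cybb was lost without treated d10 replicate 2 (adjusted p = 0.0532) or treated d14 replicate 2 (adjusted p = 0.0529). With treated d14 replicate 2 alone, the calls of Arg2, Il4i1 and Kmo held and those of Arg1 and Cybb did not (adjusted p = 0.0991 and 0.0863). The lists around the enzymes were read in the same test. Over all 18574 tested genes, 1797 were called with a more positive and 399 with a more negative effect at d14. Of the NADPH oxidase genes 6 of 10, of the adenosine genes 7 of 18, of the IL-4 and IL-13 genes 5 of 12 and of the tryptophan genes 4 of 11 were called with a more positive effect at d14, and no gene of these 4 lists with a more negative one. Markers of several cell types did likewise, with 5 of 8 called for macrophages and monocytes (median difference 1.24), 3 of 4 for B cells (4.14), 4 of 5 for T cells (1.18), 4 of 5 for fibroblasts (1.505), 4 of 7 for dendritic cells (1.25) and 3 of 6 for resident peritoneal macrophages (1.35). Their part in the differences of the enzymes was not tested.

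At d10 itself, Il4i1 and Kmo had the largest differences between treated and untreated tumors. Log2 fold changes were -1.28 ± 0.33 and -1.43 ± 0.27 with adjusted p-values of 0.213 and 0.130 in edgeR. DESeq2 gave nearly the same fold changes and called both lower, with adjusted p-values of 0.0121 and 7.75e-05. It called 223 of 17258 genes in this comparison. Within library set B, against untreated d10 replicates 4 and 5, the log2 fold changes were -1.39 and -1.52 (adjusted p = 0.138 and 0.0903). In that same comparison Arg1 had a log2 fold change of 0.59 (adjusted p = 0.138), opposite in sign to the value with all d10 tumors, -0.26 (adjusted p = 0.746). B cell markers summed to 28.5 to 33.5 normalized CPM in treated and 40.5 to 132 in untreated d10 tumors, and their part in the Il4i1 and Kmo values was not tested.

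The 10 genes fell into loose groups by likeness over the 17 tumors, given here as a description over tumors that share time, treatment and library set. Pearson's r of log2 levels was 0.84 between Arg2 and Nos2 and between Arg2 and Cybb, 0.80 between Arg1 and Acod1 and 0.93 between Il4i1 and Kmo. Ido1 ran against Arg2 (-0.86) and Nos2 (-0.76). With group means removed, Il4i1 and Kmo still stood at 0.78, Kynu and Kmo at 0.79 and Arg1 and Arg2 at 0.75, whereas Ido1 and Nos2 stood at -0.07. Against the log2 sum of the macrophage and monocyte markers r was highest for Cybb (0.93, and 0.90 with group means removed), followed by Arg2 (0.83), Nos2 (0.81), Arg1 (0.78), Acod1 (0.62) and Kynu (0.51), and was 0.13 for Il4i1, -0.58 for Ido1, 0.02 for Kmo and 0.18 for Nt5e. With group means removed r was 0.66 for Nos2, 0.65 for Arg2, 0.52 for Arg1, 0.48 for Kynu and 0.45 for Acod1. It was then 0.41 for Kmo, 0.24 for Il4i1, 0.14 for Ido1 and -0.12 for Nt5e.

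**Figure D5:**
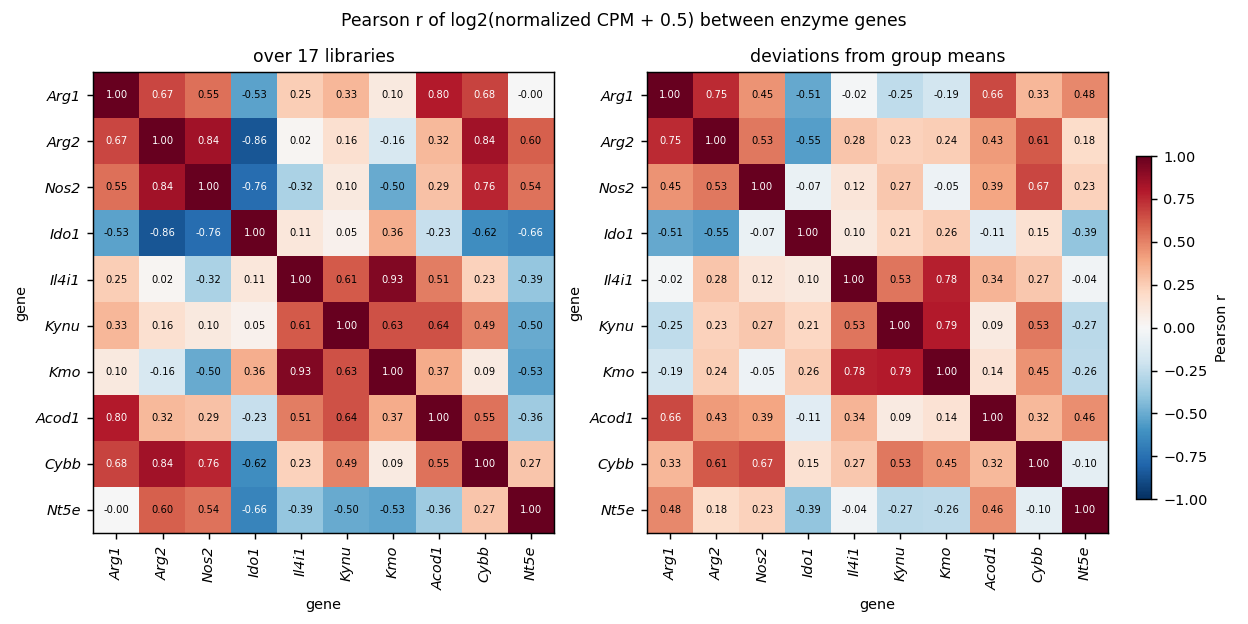
Pearson's r between each pair of the 10 genes on log2(normalized CPM + 0.5), over 17 tumors at left and on deviations from group means at right, colored from -1 (blue) to 1 (red). Il4i1 and Kmo stay strongly related in both panels (0.93 and 0.78), and Ido1 is blue against Arg2 in both (-0.86 and -0.55).

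Over 12328 genes with a symbol and a mean of at least 1 normalized CPM, the genes most like Cybb were Ptpn7, Syk and Mertk (r = 0.96, 0.96 and 0.96), and those most like Nos2 were Sytl3, Slc2a3 and Ccl4 (0.96, 0.96 and 0.96). F10, Fcgr2b and Mtmr7 were most like Arg1 (0.94, 0.91 and 0.91), and Smpd5, Cped1 and Grina most like Arg2 (0.96, 0.95 and 0.95). Cldn2, Nek3 and Cyp51 were most like Ido1 (0.92, 0.91 and 0.91). Pi16, Kmo and St8sia6 were most like Il4i1 (0.93, 0.93 and 0.91), Foxp3, Il4i1 and Bank1 most like Kmo (0.94, 0.93 and 0.92), and Jaml and Irf5 were among those most like Kynu (0.92 and 0.92). Nfkbia, P2ry14 and Stx11 were most like Acod1 (0.91, 0.91 and 0.90). Smad7, Prdm1 and Rps6ka2 were most like Nt5e (0.96, 0.95 and 0.95), and the first of these stood at only 0.27 once group means were removed. In Cybb and its like genes, by contrast, r stayed at 0.88 or above after that step.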

How the data were processed

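RNA of 17 AB12 tumors was sequenced by the authors (KAPA RNA HyperPrep, NextSeq500 or NovaSeq6000, the instrument of each library not being given in the sources used here), aligned to GRCm38 with TopHat2 2.0.14, as the submitters' processing notes name it, and counted with HTSeq on Gencode vM21. The deposited values are these whole-number counts per gene, without normalization; strand settings are not given in the sources used here. All 55450 genes were matched to Gencode vM21. Sample labels gave the groups and the replicate numbers. No 2 replicates differed by as little as sampling noise (chi-square per gene 18.5 to 268 over 22 pairs).

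Counts were tested in R 4.3.3 with edgeR 4.0.16 (filterByExpr, TMM, quasi-likelihood test) over all genes, each fit holding just the groups it compared. Standard errors are the log2 fold change over the square root of F. Normalized CPM are TMM-scaled CPM over the 17 libraries, and correlations used log2(normalized CPM + 0.5). The fit was tested on simulated data. Alternatives were DESeq2 1.42.0, library size without TMM, other count filters, all 5 groups in one fit, parts of the untreated d10 tumors, each library left out and the replicate number as a block, and treated d14 replicate 2 alone was added after the data were seen. Replicate numbers did not pair the samples, since in no comparison did every same-numbered pair correlate above 0.1. Promoter windows are RefSeq's for GRCm38.p6, and no entry was found for Arg1, Arg2, Nos2, Ido1 and Kynu. The genes named are the 10 enzymes, the 3 genes most like each, and from each list the called genes where 5 or fewer were called and otherwise the 3 with the largest change. Other genes, among them Gch1, Ido2, Krt19, Lrrn4, Wt1, Entpd1 and further oxidase subunits, were chosen once their values had been seen. The enzymes and lists were chosen with earlier results of these data known. Figures were drawn with matplotlib 3.10.9. Some items that the naming rule would include are not reported here.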

Additional observations from a re-analysis of the deposited data

Results flagged for a closer look

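Treatment effects at d14 and d10 differed, by a test of the difference itself, for 6 of the 10 genes at an adjusted p-value below 0.05 (edgeR's quasi-likelihood test), whatever the fold change. The share of all tested genes at that limit alone is not given here. Past both thresholds it was 5 of the 10 and 11.8% of all tested genes. At an unadjusted p below 0.05 it was 9 of the 10 and 6080 of the 18574 tested genes. The difference in log2 fold change, d14 effect minus d10 effect, was 2.53 for Il4i1, 2.0 for Arg2, 1.98 for Kmo, 1.68 for Arg1, 1.41 for Cybb and 0.77 for Acod1, the last within 2-fold (adjusted p = 0.0179). For Il4i1 and Kmo the log2 fold changes were -1.28 and -1.43 at d10, neither called, and 1.26 and 0.56 at d14, the first of them called, while for Acod1 they were -0.01 and 0.77. No tumor of the untreated d10 group, the only group large enough for a test of a single far value, was set apart in any of the 10 genes.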

How the results depend on the processing

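Of 1130 recomputed log2 fold changes of the 10 genes, 1026 kept their direction and their side of the thresholds, 44 lost a call, 29 gained one and 31 changed sign, and none of those that changed sign had been called before. The causes were not tested, apart from the fewer samples of some fits. Without TMM, Arg1 lost its d14 against d10 call (adjusted p = 0.0544), Nt5e gained one there, and in treated d14 against untreated d10 tumors Kynu turned to 0.076 and Kmo to 0.051. Over all genes with at least 1 count the effect difference of Nt5e turned to -0.0093.

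Of the 50 values recomputed with untreated d10 replicates 4 and 5 alone 36 were unchanged in call and direction, of the 50 with replicates 1 to 3 alone 42, and of the 30 with treated d14 replicate 2 alone 20. With untreated d10 replicates 4 and 5 alone Arg1 turned to -0.46 in d10 against d6, Ido1 to -0.00028 in d14 against d10, Arg1, Arg2, Acod1 and Cybb to 0.59, 0.085, 0.21 and 0.084 in treated against untreated d10, and the effect difference of Nt5e to -0.074. With replicates 1 to 3 alone, in treated d14 against untreated d10, Arg1 turned to -0.25, Kynu to 0.11 and Acod1 to -0.018. Treated d14 replicate 2 alone, chosen after seeing the data, turned Kynu to 0.28 in that comparison.

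Counts of all genes called moved by over 1.5 times as follows. For d10 against d6 it was 2794 with d10 replicates 4 and 5. For d14 against d10 it was 821 with at least 10 counts in every library, 2001 with all 5 groups in one fit and 1969 with d10 replicates 1 to 3, where 2 of the 10 enzymes were called. For d14 against d6 it was 2151 with at least 10 counts. For treated against untreated d10 it was 223 by DESeq2, 0 by edgeR without TMM, 40 with at least 1 count, 7 with at least 10, 77 with all 5 groups, 1152 with replicates 1 to 3 and 96 with 4 and 5, and 2 enzymes were called by DESeq2, with all 5 groups and with replicates 1 to 3. For treated d14 against untreated d10 it was 807 with at least 10 counts, 2271 with replicates 1 to 3 (0 enzymes) and 2202 with 4 and 5 (3 enzymes). Treated d14 replicate 2 alone gave 2 genes and 0 enzymes at d14, 1 gene and 0 enzymes against untreated d10, and 771 genes and 3 enzymes for the effect difference.

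Leaving out 1 tumor at a time gave 810 to 1377 genes and 2 to 4 enzymes for d10 against d6, 281 to 1528 and 0 to 3 for d14 against d10, 3117 to 3437 and 3 to 4 for d14 against d6, 1172 to 2851 and 4 to 6 for treated against untreated d14, 0 to 115 and 0 to 1 at d10, 588 to 1790 and 0 to 2 for treated d14 against untreated d10, and 1315 to 2598 and 3 to 6 for the effect difference. For the genes whose sign changed under it, log2 fold changes lay between -0.55 and 0.16 for Cybb in d14 against d6, between -0.44 and 0.0064 for Arg1 and -0.066 and 0.096 for Acod1 in treated against untreated d10, between -0.054 and 0.37 for Arg1, -0.30 and 0.096 for Kynu and -0.21 and 0.084 for Kmo in treated d14 against untreated d10, and between -0.17 and 0.27 for the effect difference of Nt5e.

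With the replicate number as a block, 1210 genes and 2 enzymes, Il4i1 and Kmo, were called in treated against untreated d10, and 2361 genes and 0 enzymes in treated d14 against untreated d10, where Arg1 turned to -0.24, Kynu to 0.12 and Acod1 to -0.014. Il4i1 was also called in d10 against d6 (-1.05). In this fit untreated d10 replicates 4 and 5 have no partner and add nothing to the difference. The correlation of same-numbered tumors' deviations lay between -0.298 and 0.161. The lowest count of an enzyme in a library was 55.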
